A study of Rattus norvegicus with 16 samples.

Results

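The glucocorticoid and stress axis was followed here through 10 genes in the rat hippocampus: the corticosteroid receptors Nr3c1 and Nr3c2, the glucocorticoid-induced genes Fkbp5, Sgk1 and Tsc22d3, the corticotropin-releasing hormone gene Crh with its receptors Crhr1 and Crhr2 and its binding protein Crhbp, and the steroid-activating enzyme Hsd11b1. They were chosen by symbol as genes of this axis, and every non-control probe carrying one of these symbols was kept, which gave 14 of the 30367 probes on the array, for 10 of 26583 distinct gene names. Nr3c1, Nr3c2, Crh and Crhr2 have 2 probes each and the others 1. For a gene with 2 probes, the brighter over all arrays represents it, and the dimmer is given beside it.

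All rats were adult male Sprague-Dawley animals, and each array holds the whole hippocampus of 1 rat. Naive rats (n = 3) were neither injured nor treated. Sham rats (n = 2) were anaesthetized and prepared surgically without injury, and TBI rats (n = 3) were prepared in the same way and received parasagittal fluid-percussion injury, a pressure pulse of fluid against the brain. TBI+PMI (n = 3), TBI+JM6 (n = 3) and TBI+E33 (n = 2) rats were injured and then treated with the experimental compounds PMI-006 or JM6, both given orally, or with estrogen. Tissue was taken at 24 h under isoflurane. The corticosterone level of the rats and the hour of the day at which they were killed were not analysed here. In whole tissue, fewer cells of a type and less RNA per cell cannot be told apart.

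In the stress response, hypothalamic CRH drives pituitary corticotropin release, which raises corticosterone, and corticosterone returns to the brain and binds its receptors there. The hippocampus is rich in both receptors: the mineralocorticoid receptor binds corticosterone with high affinity, whereas the glucocorticoid receptor has lower affinity and is occupied when corticosterone rises. The liganded receptors act as transcription factors and induce genes such as Fkbp5, Sgk1 and Tsc22d3. Crh is also made within the hippocampus, mainly by interneurons, and acts on receptors of neighbouring neurons.

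Values are log2 levels scaled to the upper quartile (75th percentile) of each array's detected probes, so a value of 0 lies at that quartile and levels of different probes cannot be set against each other. The Naive, Sham and TBI arrays were scanned in a later session than the 3 drug-treated groups. In the later session 16274 to 18239 probes per array were above background, and in the earlier session 20256 to 24979, so that drug treatment and session cannot be told apart. Slide 1 held Naive 1 and 2 with both Sham arrays, and slide 2 held Naive 3 with the 3 TBI arrays. Within a group, arrays correlated over tested probes at 0.964 or more. A gene was called at a limma adjusted p under 0.05 over all tested probes. Of the 14 member probes, 13 passed the filter on dim signal, and the second probe of Crhr2 did not.

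The letters of 3 receptor probes are shown because results differed between probes of Nr3c2 and because Crhr1 and Crhr2 lay near background. The second Nr3c2 probe ends in TGA, in capitals, the letters of a stop codon, with no other stop codon in that frame. Whether it lies in coding sequence was not checked against an annotation. In rn4 the probes lie at chr19:32530204-32530263 on the minus strand, chr10:93353354-93353413 on the plus strand and chr4:83851526-83851585 on the minus strand.
Nr3c2, second probe: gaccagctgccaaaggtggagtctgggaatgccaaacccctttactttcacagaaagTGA
Crhr1: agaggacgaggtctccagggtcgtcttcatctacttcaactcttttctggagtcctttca
Crhr2, second probe: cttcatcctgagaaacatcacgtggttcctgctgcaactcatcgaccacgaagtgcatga

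**Figure D1:**
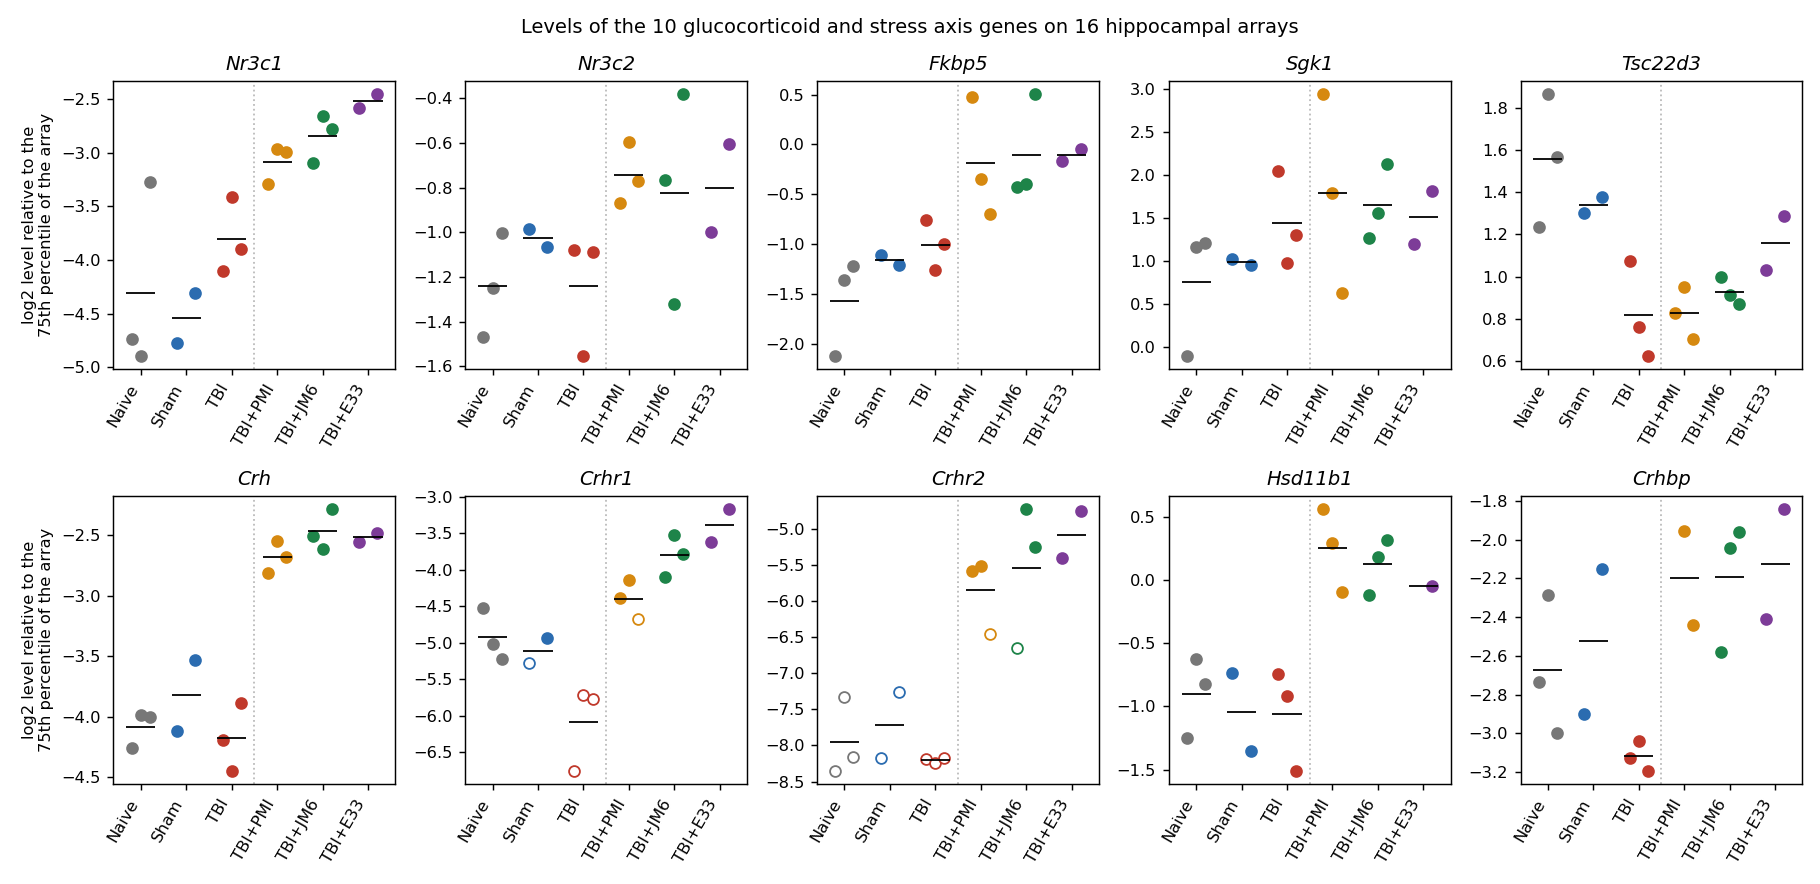
Log2 level of each of the 10 genes (brighter probe) on each of the 16 arrays, scaled to the upper quartile of the array. Points are arrays, filled where the probe was above background and open where it was not, black lines are group means, and the dotted line separates the later scanning session (left) from the earlier one (right). Tsc22d3 was lower on the 3 TBI arrays than on all Naive and Sham arrays, Crhr1 was detected on 0 of 3 TBI arrays, and Crhr2 on 0 of the 8 Naive, Sham and TBI arrays.

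Injury was compared with both control groups, and Sham rats, prepared surgically under anaesthesia, were compared with Naive rats. Among the 10 genes, Tsc22d3 and Crhr1 were called in TBI vs. Naive, both lower in TBI, where 4.71% of all tested probes were called and 1.73% were called lower. In TBI vs. Sham 0 of 10 genes were called by limma, against 9.38% of tested probes, and 2 had an unadjusted p under 0.05. In Sham vs. Naive 0 of 10 genes were called, against 8.07% of probes, and 0 had an unadjusted p under 0.05. The median log2 difference over the 10 genes was -0.28 in TBI vs. Sham, -0.12 in TBI vs. Naive and 0.18 in Sham vs. Naive, where the medians of all tested probes were -0.03, 0.04 and 0.06. The arrays of the groups did not overlap for 6 of 10 genes in TBI vs. Sham, 3 of 10 in TBI vs. Naive and 1 of 10 in Sham vs. Naive, against 41.9%, 23.3% and 39.6% of tested probes. TBI vs. Sham and TBI vs. Naive share the TBI arrays.

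Tsc22d3 encodes the glucocorticoid-induced leucine zipper, an anti-inflammatory protein that glucocorticoids normally raise. Its log2 level was 1.23, 1.86 and 1.57 on the Naive arrays, 1.30 and 1.38 on the Sham arrays, and 1.08, 0.76 and 0.62 on the TBI arrays. Every TBI array lay below every Naive and every Sham array. It was 1.66-fold lower in TBI than in Naive rats (log2 difference -0.73, SE 0.18, 95% interval -1.12 to -0.34, limma adjusted p = 0.037). Against Sham the log2 difference was -0.52 (SE 0.20, interval -0.95 to -0.08, limma adjusted p = 0.12), and it was not called. Sham and Naive rats differed by -0.22 (SE 0.20), about the size of its SE. On slide 2 alone, the 3 TBI arrays and Naive 3 differed by -0.75, with no replicate of Naive. Of the 6 fits that left out an array, those without Naive 1 or TBI 1 kept the call, and those without Naive 2, Naive 3, TBI 2 or TBI 3 did not, with log2 differences from -0.89 to -0.58 over the 6. With the slide as a fixed block the adjusted p was 0.61.

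Fkbp5 encodes FKBP51, a co-chaperone that lowers the affinity of the glucocorticoid receptor for its ligand. Its log2 level was -2.13, -1.36 and -1.22 on the Naive arrays, -1.11 and -1.22 on the Sham arrays, and -0.75, -1.27 and -1.0 on the TBI arrays. Naive 1 was the lowest of these arrays, and the TBI and Sham arrays overlapped. The log2 difference was 0.15 in TBI vs. Sham (SE 0.38, interval -0.66 to 0.97, limma adjusted p = 0.83) and 0.56 in TBI vs. Naive (SE 0.34, interval -0.17 to 1.29, limma adjusted p = 0.38). Neither difference was called, and both intervals include 0.

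Sgk1 encodes a kinase that corticosteroids induce and that acts on ion channels and transporters. Its log2 level was -0.11, 1.17 and 1.21 on the Naive arrays, 1.03 and 0.96 on the Sham arrays, and 2.05, 0.98 and 1.31 on the TBI arrays. Naive 1 was again the lowest and TBI 1 the highest, while the remaining 6 arrays lay between 0.96 and 1.31. The log2 difference was 0.45 in TBI vs. Sham (SE 0.58, limma adjusted p = 0.66) and 0.69 in TBI vs. Naive (SE 0.52, interval -0.44 to 1.82, limma adjusted p = 0.50), and neither was called. The SE of Sgk1 was the largest among the 10 genes in both comparisons.

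The glucocorticoid receptor gene Nr3c1 was above background on all 16 arrays with its brighter probe. On the log2 scale it lay at -4.74, -4.90 and -3.27 on the Naive arrays, -4.77 and -4.31 on the Sham arrays, and -4.11, -3.41 and -3.90 on the TBI arrays. All 4 arrays of slide 2 were higher than all 4 arrays of slide 1, and Naive 3, on the slide of the TBI arrays, was the highest of the 8. The log2 difference was 0.73 in TBI vs. Sham (SE 0.39, limma adjusted p = 0.26) and 0.50 in TBI vs. Naive (SE 0.35, limma adjusted p = 0.47). On slide 2, TBI was below Naive 3 by a log2 difference of -0.53, and without Naive 3 the TBI vs. Naive difference was 1.01 (limma adjusted p = 0.046). The direction thus depended on Naive 3, where slide and rat cannot be told apart. The second Nr3c1 probe was above background on 0 of these 8 arrays, so that no difference between them could be read from it.

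The mineralocorticoid receptor gene Nr3c2 gave different answers with its 2 probes, both above background on all 16 arrays. With the brighter probe, the log2 level was -1.47, -1.25 and -1.0 in Naive, -0.98 and -1.07 in Sham, and -1.08, -1.55 and -1.09 in TBI rats. These levels nearly coincided, and the log2 difference was -0.22 in TBI vs. Sham (SE 0.26, limma adjusted p = 0.64) and -0.00 in TBI vs. Naive (SE 0.24). With the second probe, printed above, the log2 level was -4.84, -4.34 and -4.12 in Naive, -3.25 and -3.31 in Sham, and -4.02, -4.93 and -4.24 in TBI rats. Both Sham arrays lay above all Naive and TBI arrays, and the second probe was called higher in Sham than in Naive (log2 difference 1.16, SE 0.29, limma adjusted p = 0.028) and lower in TBI than in Sham (-1.12, SE 0.29, limma adjusted p = 0.031). TBI and Naive differed by 0.04 (SE 0.26). On slide 1 alone, the 2 Sham arrays exceeded the 2 Naive arrays by 1.32, and after quantile normalization neither call was kept, with adjusted p of 0.11 and 0.069. Pyramidal and granule neuron markers moved in the same comparisons: 3 of 7 tested were called higher in Sham than in Naive and 3 of 7 lower in TBI than in Sham, with summed levels of 12.3 to 12.8 in Naive, 19.8 to 21.1 in Sham and 11 to 16.7 in TBI rats. Of all tested probes, 1493 of 22778 were called higher in Sham vs. Naive and 6.46% lower in TBI vs. Sham. After quantile normalization, 0 of 7 markers were called higher in Sham than in Naive and 1 of 7 lower in TBI than in Sham. Rbfox3, 1 of the markers called lower in TBI before it, was above background on 0 of 3 TBI arrays. The part of these markers in the result was not tested.

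Crhr1 encodes the main CRH receptor of the hippocampus. Its log2 level was -4.52, -5.02 and -5.23 on the Naive arrays, -5.29 and -4.93 on the Sham arrays, and -6.76, -5.72 and -5.77 on the TBI arrays. The probe was above background on 3 of 3 Naive, 1 of 2 Sham and 0 of 3 TBI arrays, and the TBI arrays were the lowest of the 8. The measured log2 difference was -1.16 in TBI vs. Naive (SE 0.30, limma adjusted p = 0.043) and -0.98 in TBI vs. Sham (SE 0.33, limma adjusted p = 0.082). With TBI set to a floor, it was 1.86-fold lower than Naive and 1.64-fold lower than Sham. The floor sets the TBI arrays at the dimmest signal that counted as above background on each, or at their own signal where that was higher. It is no strict limit: on Sham 1 the Crhr1 signal of 41.6 was not above background, while the dimmest detected probe had 23.2. The Sham mean includes that array. The call in TBI vs. Naive was lost in each of the 6 fits that left out an array, with log2 differences from -1.34 to -0.82, and on slide 2 alone the difference was -0.86. With a normexp background correction the TBI vs. Naive difference was 0.18, and -0.29 when spots darker than their local background were first left out, neither called. Against Sham, the gene was called when the slide entered as a random block (-1.03, adjusted p = 0.032), with a slide correlation of -0.088, and not with the slide as a fixed block (-0.52, adjusted p = 0.88). All Sham arrays were on slide 1 and all TBI arrays on slide 2.

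Crh itself was above background on all 16 arrays with its brighter probe. The log2 level was -4.26, -3.99 and -4.01 in Naive, -4.12 and -3.53 in Sham, and -4.19, -4.45 and -3.88 in TBI rats, and the 3 groups overlapped. The log2 difference was -0.35 in TBI vs. Sham (SE 0.22, interval -0.82 to 0.11, limma adjusted p = 0.33) and -0.09 in TBI vs. Naive (SE 0.19). The second Crh probe was above background on 1 of 3 Naive, 2 of 2 Sham and 0 of 3 TBI arrays. It put TBI 1.39-fold below Sham with TBI set to its floor (measured log2 difference -0.80, SE 0.26, limma adjusted p = 0.071), also without a call.

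Crhbp, which binds CRH outside cells and limits its action, had a log2 level of -2.73, -2.29 and -3.0 in Naive, -2.90 and -2.15 in Sham, and -3.12, -3.04 and -3.19 in TBI rats. The TBI arrays lay close together and below all 5 control arrays. The log2 difference was -0.59 in TBI vs. Sham (SE 0.30, interval -1.25 to 0.07, limma adjusted p = 0.24) and -0.45 in TBI vs. Naive (SE 0.27, limma adjusted p = 0.39), and neither was called. Interneuron markers, which mark the cells that make Crh and Crhbp, had summed levels of 30.0 to 41.5 in Naive, 23.4 to 31.1 in Sham and 19.9 to 27.7 in TBI rats. Of 7 interneuron markers tested, 1 was called lower in TBI vs. Naive, against 1.73% of all tested probes. It was Cck, the brightest of the 7, which also weighs most in the sums. Called or not, 6 were lower and 1 higher in TBI vs. Naive. In TBI vs. Sham 7 of 7 were lower and 0 were called. The part of these markers in the result was not tested.

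Crhr2, the receptor preferred by the urocortins, was above background on 0 of the 8 arrays with either probe, so that no difference among Naive, Sham and TBI rats could be read. Hsd11b1, the enzyme that regenerates active corticosterone inside cells, had a log2 level of -1.25, -0.63 and -0.83 in Naive, -0.74 and -1.35 in Sham, and -0.74, -0.92 and -1.51 in TBI rats. All 3 groups spanned nearly the same range, and the log2 difference was -0.01 in TBI vs. Sham (SE 0.30, interval -0.67 to 0.64) and -0.16 in TBI vs. Naive (SE 0.27, interval -0.74 to 0.43).

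**Figure D2:**
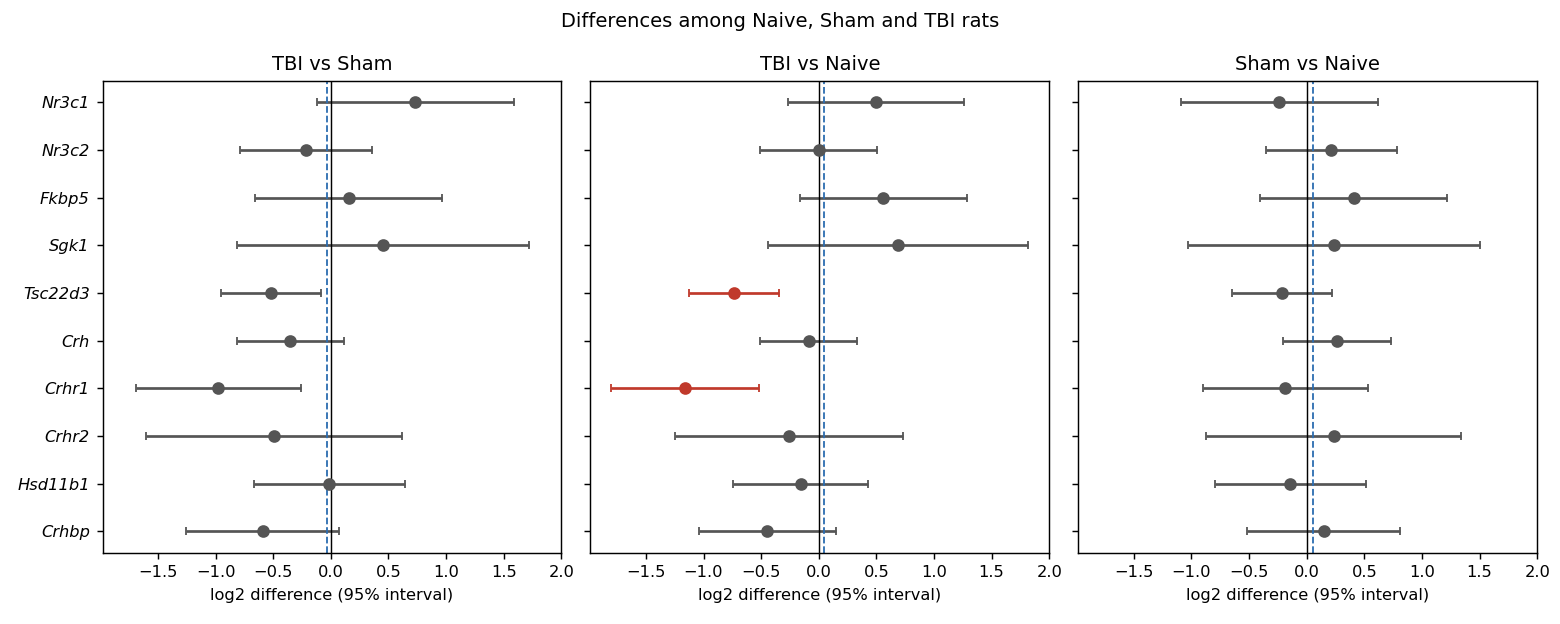
Log2 difference of each gene (brighter probe) between the groups named above each panel, with its 95% interval from limma over all 16 arrays. Red points were called at an adjusted p under 0.05, grey points were not, and the dashed line is the median of all tested probes. Tsc22d3 (-0.73) and Crhr1 (-1.16) were called in TBI vs. Naive, and for Crhr1 the TBI value rests on background signal.

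Other genes of the pathway were counted as 4 lists. Of 20 further genes that glucocorticoids induce, 18 were tested. In TBI vs. Sham, Fam107a, a stress-responsive actin-binding protein gene (log2 difference -1.81, SE 0.46, limma adjusted p = 0.030), and Ddit4, an inhibitor of mTOR signalling (-1.58, SE 0.39, limma adjusted p = 0.028), were called lower and 0 higher, where 6.46% of all tested probes were called lower, and the median of the 18 was -0.21 against -0.03 for all probes. In TBI vs. Naive, Cebpd, a transcription factor gene of the acute phase response (2.30, SE 0.35, limma adjusted p = 0.0063), and Gpd1, a glycerol phosphate enzyme gene (1.63, SE 0.37, limma adjusted p = 0.030), were called higher and 0 lower, with a median of 0.10 against 0.04. In that comparison 680 of 22803 tested probes were called higher. In Sham vs. Naive, Fam107a was called higher (1.71, SE 0.46, limma adjusted p = 0.039) and 0 genes lower, with a median of 0.34 against 0.06, where 1493 of 22778 tested probes were called higher. Neither call of Fam107a was kept after quantile normalization (-1.67, limma adjusted p = 0.058 in TBI vs. Sham, and 1.52, limma adjusted p = 0.089 in Sham vs. Naive), with differences of nearly the same size. Over the 18 genes, 6 were higher and 12 lower in TBI vs. Sham, and 10 were higher and 8 lower in TBI vs. Naive, called or not. Blood leukocyte markers rose with injury beside them: 3 of 5 tested were called higher in TBI vs. Sham and 4 of 5 in TBI vs. Naive. Of all tested probes, 666 of 22793 and 680 of 22803 were called higher there. The summed marker level was 0.590 to 0.893 in Naive and 1.16 to 1.52 in Sham rats, and 1.52 and 7.09 on TBI 1 and 2. The sum on TBI 3, 1.32, lacks Lyz2, whose value was flagged, and cannot be set against the others. Their part in the result was not tested.

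Among receptor chaperones and coregulators, 12 of 14 genes were tested, and Nrip1, a nuclear receptor corepressor gene, was the only call in these 3 comparisons, lower in Sham than in Naive (log2 difference -0.81, SE 0.22, limma adjusted p = 0.039). Of 12 other stress peptides and receptors 7 were tested, and of 10 genes of corticosteroid synthesis, clearance and transport 7 were tested. Neither list had a call in TBI vs. Sham, TBI vs. Naive or Sham vs. Naive, with medians from -0.27 to 0.04 and from -0.42 to 0.49. In the second list, Star, Serpina6 and Cyp11b2 were above background on 0 of 3 TBI arrays, so its medians rest in part on background signal.

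The drug-treated groups were set against TBI to show how the axis differed with each compound, with the scanning session changing at the same time. The median of all tested probes was higher by 0.99 in TBI+JM6, 0.79 in TBI+PMI and 1.08 in TBI+E33 than in TBI, and after quantile normalization, which gives all arrays the same distribution, it was -0.00, -0.01 and -0.00. Higher calls were made for 7 of 10 genes in TBI+JM6, 5 of 10 in TBI+PMI and 7 of 10 in TBI+E33, against 69.9%, 56.7% and 70.2% of all tested probes (70.1%, 56.7% and 70.3% in either direction). The members' shares were thus near those of the array as a whole. Without the array TBI+E33 2, which leaves Hsd11b1 without a value in that group, 3 of 9 genes were called in TBI+E33 vs. TBI. After quantile normalization, 2, 1 and 0 of the 10 genes were called, against 27.2%, 19.2% and 20.4% of probes. The median of the 10 genes was 0.94, 0.87 and 1.0 before quantile normalization and 0.03, 0.10 and 0.08 after it. The 3 comparisons share the TBI arrays.

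Tsc22d3 stood below the shift of the array in all 3 groups. Levels were 0.83, 0.95 and 0.71 in TBI+PMI, 1.0, 0.91 and 0.87 in TBI+JM6, and 1.03 and 1.29 in TBI+E33 rats, within or just above the TBI range of 0.62 to 1.08. The log2 difference from TBI was 0.11 for JM6, 0.01 for PMI and 0.34 for E33 (SE 0.18 to 0.20), or -0.89, -0.78 and -0.74 once the all-probe median is subtracted. After quantile normalization the differences were -0.50 (limma adjusted p = 0.041), -0.46 (0.070) and -0.28 (0.30), and the direction therefore depended on the scaling. For JM6 the called value thus had the opposite sign to the value before quantile normalization.

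Crhr2 was above background on 2 of 3 TBI+PMI, 2 of 3 TBI+JM6 and 2 of 2 TBI+E33 arrays and on 0 of 3 TBI arrays. Measured log2 levels were -5.58, -5.51 and -6.46 in TBI+PMI, -6.64, -4.72 and -5.24 in TBI+JM6, -5.41 and -4.74 in TBI+E33, and -8.24 to -8.18 in TBI rats. With TBI set to its floor, levels were 1.35-fold higher with JM6, 1.09-fold with PMI and 1.85-fold with E33 (limma adjusted p = 0.000291, 0.00102 and 0.000238 for the measured differences). The JM6 and PMI means include an array where the probe was not above background, so these folds are no lower limits. After quantile normalization the measured log2 differences were 1.47 (limma adjusted p = 0.038), 1.41 (0.055) and 1.56 (0.055). The second Crhr2 probe was above background on 1 array in all, in TBI+JM6. Choroid plexus, which expresses Crhr2, was present unevenly: the summed level of its markers was, in array order, 154, 7.72 and 0.333 in TBI+PMI, 1.87, 0.612 and 0.484 in TBI+JM6, 0.510 and 1.42 in TBI+E33, and 3.60, 0.521 and 0.226 in TBI rats. In TBI+PMI, arrays 1 and 2, with Crhr2 above background, had the higher choroid plexus signal, and array 3, without, the lowest. In TBI+JM6, arrays 2 and 3, with Crhr2 above background, had a lower summed level than array 1, without. That order follows Ttr, the brightest marker, at 0.76, -1.31 and -1.91 in log2. Kcne2 and Otx2 were also lower on arrays 2 and 3, whereas Kl, Folr1 and Slc4a5 were higher there than on array 1. In the later session, Sham 1 and Naive 2 had summed levels of 123 and 77.9, and Crhr2 was not above background on either. The part of choroid plexus in the result was not tested.

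Crhr1 was above background on 0 of 3 TBI arrays and on 7 of 8 drug-treated arrays. Levels were -4.39, -4.14 and -4.68 in TBI+PMI, -4.10, -3.52 and -3.79 in TBI+JM6, and -3.62 and -3.17 in TBI+E33 rats. With TBI set to its floor, levels were 4.05-fold higher with JM6, 2.68-fold with PMI and 5.39-fold with E33. The PMI mean includes the array where Crhr1 was not above background. After quantile normalization the measured log2 differences were 0.52, 0.07 and 0.84 (limma adjusted p = 0.15, 0.87 and 0.060), and none was called. Crh rose by 1.71, 1.49 and 1.66 on the log2 scale with JM6, PMI and E33 (SE 0.19 to 0.22), each called, and the groups did not overlap: -2.82 to -2.28 over the 8 drug-treated arrays against -4.45 to -3.88 in TBI. After quantile normalization the log2 differences of Crh were 0.53, 0.49 and 0.36 (limma adjusted p = 0.054, 0.087 and 0.24), and none was called. The second Crh probe, above background on 0 of 3 TBI and all 8 drug-treated arrays, gave measured differences of 1.71, 1.33 and 1.39, all called. With TBI at its floor it was 2.61-, 2.01- and 2.08-fold higher. After quantile normalization its sign was the opposite of that of the brighter probe, at -0.15, -0.32 and -0.86 (limma adjusted p = 0.68, 0.40 and 0.051). Crhbp differed by 0.92, 0.92 and 0.99, close to the median of all probes, and by -0.10, 0.13 and -0.11 after quantile normalization. The Crhbp value of TBI+PMI 1 was flagged by the scanner software and left out.

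Hsd11b1 had a log2 level of 0.56, 0.29 and -0.09 in TBI+PMI, -0.12, 0.18 and 0.31 in TBI+JM6 and -0.05 on the TBI+E33 array with a usable value, the other being flagged, and -1.51 to -0.74 in TBI rats. All drug-treated values lay above those of TBI. The log2 difference was 1.31 with PMI (SE 0.27), 1.18 with JM6 (SE 0.27) and 1.01 with E33 (SE 0.38), all called. The E33 value is 1 array whose spread is taken from the remaining groups, and its call was lost by limma on the compared groups alone (adjusted p = 0.079) and without TBI 3 (0.083). After quantile normalization it was 0.74 with PMI (limma adjusted p = 0.036), 0.45 with JM6 (0.15) and 0.18 with E33 (0.72). Hsd11b1 with PMI was thus called on both scales.

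Fkbp5 was higher by 0.90 with JM6 (SE 0.34, limma adjusted p = 0.030), 0.82 with PMI (SE 0.34, limma adjusted p = 0.052) and 0.90 with E33 (SE 0.38, limma adjusted p = 0.047). Relative to the median of all probes these were -0.10, 0.03 and -0.17, and after quantile normalization the differences were 0.16, 0.23 and 0.14. Sgk1 differed by 0.21, 0.34 and 0.06 (SE 0.52 to 0.58), less than the median of all probes in each case. With its brighter probe Nr3c1 differed by 0.97, 0.72 and 1.29, near that median and called with JM6 and E33, and by -0.24, -0.29 and 0.03 after quantile normalization. The second Nr3c1 probe, above background on 0 of 3 TBI, 3 of 3 TBI+JM6, 1 of 3 TBI+PMI and 2 of 2 TBI+E33 arrays, gave measured differences of 2.34, 1.97 and 2.61, all called (limma adjusted p = 0.00049, 0.0022 and 0.00055). With TBI at its floor, levels of this probe were 1.57-, 1.22- and 1.90-fold higher, the PMI mean including arrays not above background. After quantile normalization its log2 differences were 0.63, 0.65 and 0.64, with 0 called. Nr3c2 differed by 0.42, 0.50 and 0.44 with its brighter probe and by 1.69, 1.49 and 1.30 with the second probe. The second Nr3c2 probe was called in all 3 comparisons before quantile normalization and in none after it.

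The other pathway lists were shifted to different extents in the drug-treated groups. With JM6, PMI and E33, the medians of all tested probes were 0.99, 0.79 and 1.08 above TBI. Those of chaperones and coregulators were 0.58, 0.44 and 0.48, and those of other stress peptides and receptors 1.21, 0.48 and 1.53. For corticosteroid metabolism they were 1.38, 1.39 and 1.60. In that list, Star, Serpina6 and Cyp11b2 were above background on 0 of 3 TBI arrays and Cyp11b1 on 1 of 3. Its medians and calls against TBI therefore rest in part on background signal. Per1 and Hif3a, among the induced genes counted next, were also above background on 0 of 3 TBI arrays. In JM6, PMI and E33 vs. TBI, 8, 9 and 7 of the 18 other induced genes were called higher and 0 lower, with medians of 0.84, 0.77 and 0.64, each below the median of all tested probes. After quantile normalization 2, 0 and 1 of them were called higher. Of all tested probes, 3161 of 22820, 2274 of 22820 and 2375 of 22817 were then called higher and 3042, 2100 and 2278 lower. Chaperones and coregulators were called higher for 7, 3 and 4 of 12, other stress peptides and receptors for 4, 2 and 5 of 7, and genes of corticosteroid metabolism for 6, 6 and 6 of 7, where 69.9%, 56.7% and 70.2% of all tested probes were called higher. After quantile normalization the higher calls were 0, 0 and 0 for chaperones, 0, 0 and 0 for stress peptides and 1, 0 and 0 for corticosteroid metabolism, and the lower calls were 2, 1 and 2, then 1, 0 and 0, then 1, 1 and 0.

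**Figure D3:**
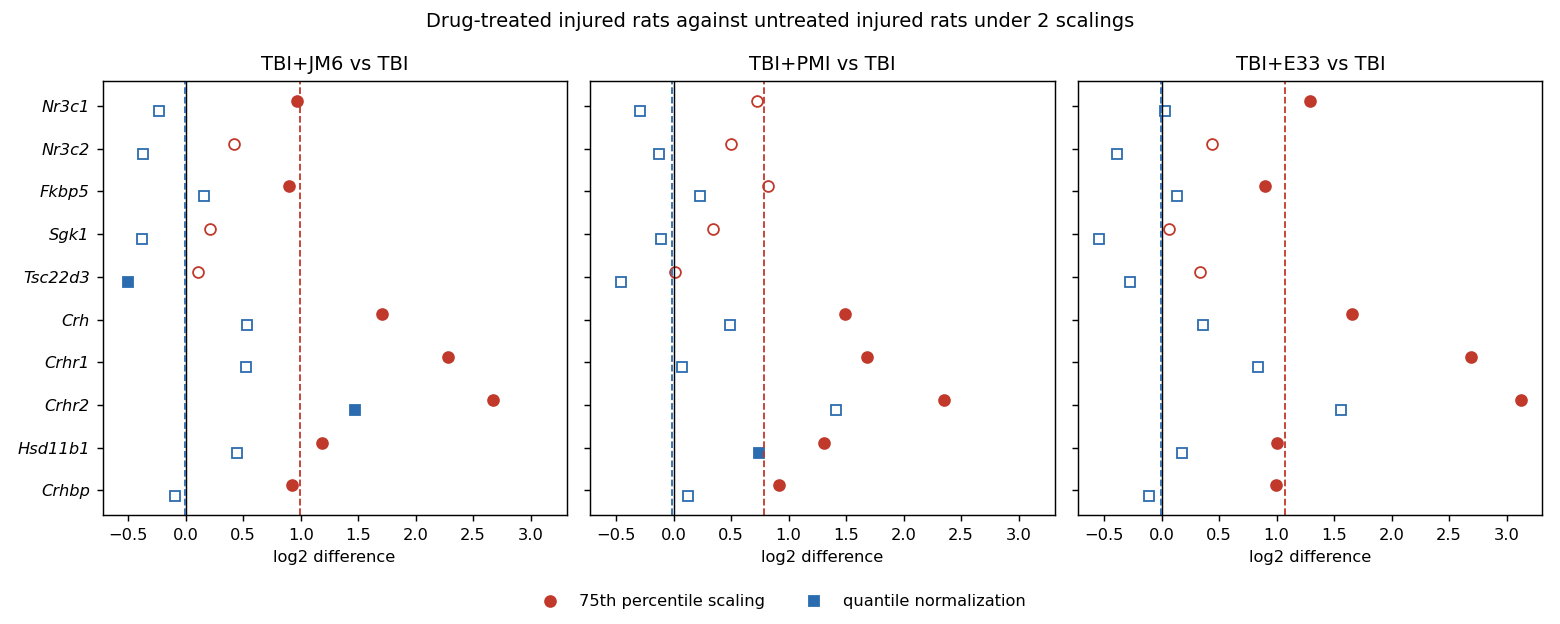
Log2 difference of each gene (brighter probe) between each drug-treated group and TBI. Red circles are values scaled to the 75th percentile, blue squares are values after quantile normalization, filled symbols were called at an adjusted p under 0.05, and dashed lines of the same colours are the medians of all tested probes. Tsc22d3 lies below the median of all tested probes on both scales. After quantile normalization Crhr2 with JM6 and Hsd11b1 with PMI kept a call, and Tsc22d3 with JM6 gained one with the opposite sign (-0.50), and for Crhr1 and Crhr2 the TBI side rests on background signal.

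The 3 drug-treated groups came from the same scanning session and were compared with each other. In TBI+JM6 vs. TBI+PMI, TBI+JM6 vs. TBI+E33 and TBI+PMI vs. TBI+E33, 0, 0 and 0 of the 10 genes were called by limma, against 0.0131%, 0.0175% and 0.11% of tested probes, and 0, 0 and 1 had an unadjusted p under 0.05. That gene was Crhr1, at -1.01 in TBI+PMI vs. TBI+E33 (SE 0.33, limma adjusted p = 0.19). The other log2 differences ranged from -0.77 to 0.60. The SE ranged from 0.18 to 0.58, and the 95% interval of Crhr1 in TBI+PMI vs. TBI+E33 was -1.73 to -0.29. A missed threshold at this precision does not show that the compounds acted alike.

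Within groups, the induced genes Fkbp5 and Sgk1 varied together with other induced genes on some arrays. Levels were centred on the mean of the Naive, Sham and TBI arrays. On TBI+PMI 1, Fkbp5 was at 1.74, Sgk1 at 1.87 and the median of the 18 other induced genes at 1.65, where the median of all tested probes was 0.89. On TBI+PMI 2 and 3 these values were 0.91, 0.72 and 0.56, and 0.56, -0.45 and 0.37, with 0.94 and 0.63 for all probes. TBI+PMI 1 thus stood above its group in Fkbp5, Sgk1 and the list, and it was also the array with the choroid plexus signal of 154. TBI+JM6 3 had Fkbp5 at 1.76, Sgk1 at 1.06 and the list at 1.34, with 1.22 for all probes, so Sgk1 lay below that median. Its choroid plexus signal was 0.484. TBI 1 had Fkbp5 at 0.50, Sgk1 at 0.97 and the list at 0.28, with -0.04 for all probes. There 17 of 18 genes of the list lay above their own means. Naive 1 was lowest in all 3 measures, with Fkbp5 at -0.87, Sgk1 at -1.18 and the list at -0.33, where 1 of 18 genes lay above its own mean. Tsc22d3 was at -0.40 on TBI+PMI 1 and -0.36 on TBI+JM6 3, in neither case the highest of its group. On Naive 1 it was at 0.01, the lowest of its group, with Naive 2 and 3 at 0.64 and 0.34. On TBI 1 it was at -0.15, the highest of its group, with TBI 2 and 3 at -0.46 and -0.60. Tsc22d3 thus went with the other induced genes on some arrays and not on others. These are descriptions over arrays that share sessions and groups.

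**Figure D4:**
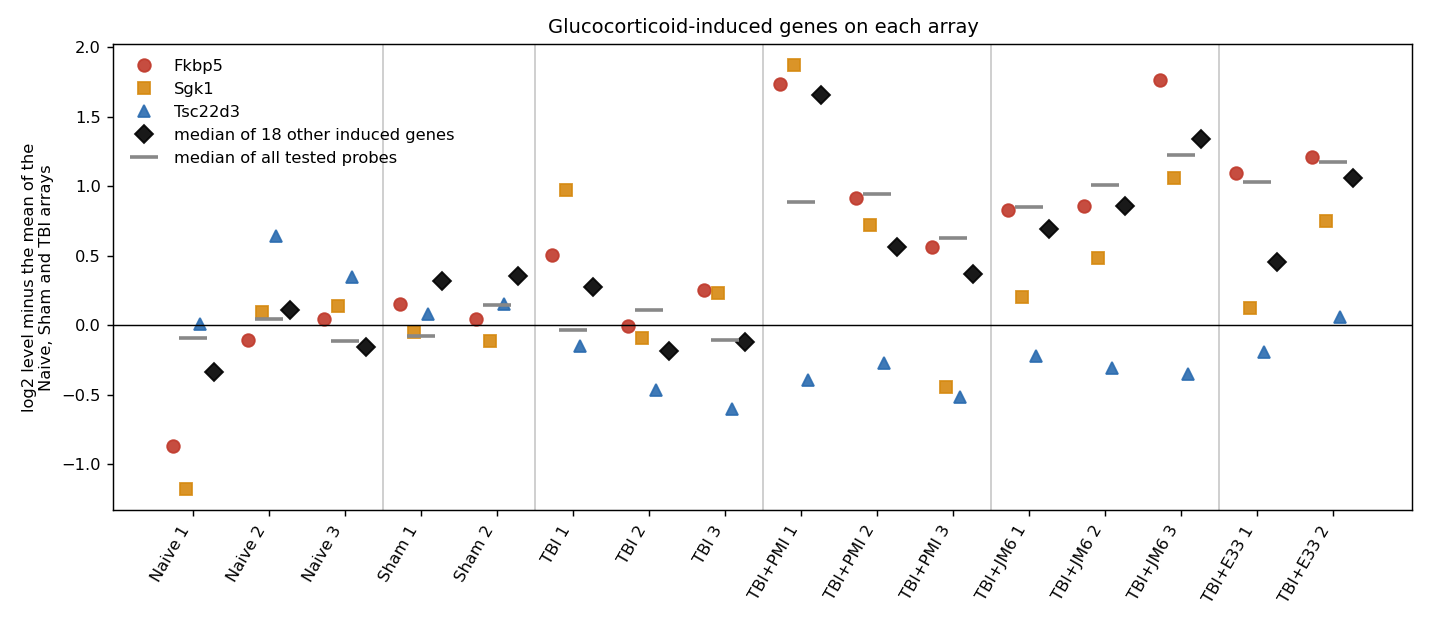
Level of Fkbp5, Sgk1 and Tsc22d3 on each array, as log2 minus the mean of the Naive, Sham and TBI arrays, beside the median of 18 other glucocorticoid-induced genes and the median of all tested probes. Points are single arrays, and vertical lines separate the groups. TBI+PMI 1 is high in Fkbp5 (1.74), Sgk1 (1.87) and the list (1.65) but not in Tsc22d3 (-0.40), and Naive 1 is low in Fkbp5 (-0.87) and Sgk1 (-1.18).

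The genes with the most similar profiles were sought among 7963 named genes above background on all 8 Naive, Sham and TBI arrays, by the root mean square difference of centred log2 levels over those 8 arrays. For Sgk1, whose own spread around its mean was 0.55, the nearest were R3hdml (0.20), Fkbp5 (0.23) and Prss23 (0.26). The second nearest gene to Sgk1 was therefore another member. For Fkbp5, with a spread of 0.37, they were Blvra (0.14), Mas1 (0.15) and Maoa (0.15). For Tsc22d3, with a spread of 0.38, they were Sarm1 (0.080), Lhx6 (0.084) and Vcam1 (0.12). For Crh, with a spread of 0.26, they were Fstl5 (0.10), Mfap3 (0.11) and Gpr176 (0.11). With 8 arrays and this many candidates, near neighbours arise readily, and these are descriptions without a test.

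Promoter letters were searched for the palindrome to which the glucocorticoid receptor binds. RefSeq promoters of GRCr8, from 250 bases before to 50 after a start, were at hand for 7 of the 10 genes, 13 windows in all, and Crh, Hsd11b1 and Nr3c2 had none. The full element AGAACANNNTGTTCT was found in 0 of the 13 windows and in 0.0149% of 33469 promoters, and the motif TGTTCT or AGAACA, which is the same on both strands, in 0 of 13 and 20.7%. This says only that these letters are not in these windows.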

How the data were processed

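RNA of the hippocampus was measured on Agilent rat arrays of 1 colour, and groups were taken from the sample labels. The authors deposited 1 scanner file per array, written by Agilent Feature Extraction 9.5.3.1 per the file headers, with the intensity of each spot after background subtraction and no normalization between arrays. They also deposited values made in GeneSpring, each a ratio to its array's upper quartile, with a median of 0.14 on each array and a correlation with the scanner values of 0.981 to 0.999. RNA had been amplified with 1 of 2 kits, and which rat had which kit is not given in the sources used here.

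Spots flagged as outliers were left out, which removed 2 values of the member genes, and the intensities of 42877 spots were averaged to 30367 probes. Values were scaled by the upper quartile (75th percentile) of each array's detected probes and put on the log2 scale. The test covered the 22821 probes detected throughout 1 or more of the groups and used 1 limma model of group means over 16 arrays with 10 residual degrees of freedom. P-values were two-sided and adjusted by the Benjamini-Hochberg method over all tested probes, and intervals are 95% intervals from the same fit. The number of arrays limits the precision, and 16274 to 24979 probes per array were above background. Probe positions are those of rn4 in the files. The model was tested on simulated data. R 4.3.3, limma 3.58.1, the data.table package (1.17.8), Python 3.11.15, pandas 2.3.3 and matplotlib 3.10.9 were used.

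The 10 genes and the pathway and marker lists were chosen with earlier results of these data known. All probes of the 10 genes are reported. From each list up to 4 called genes per comparison were to be named by size of change, and those of the drug comparisons are left out because of the shift between sessions. Of the 116 list genes, 113 were on the array. The replicate numbers did not pair the arrays: same-numbered arrays of compared groups correlated at -0.19 to 0.18 in their deviations. Alternatives were quantile normalization, the percentile over all probes, normexp with an offset of 50, no filter and a filter on all 16 arrays, the deposited ratios, the compared groups alone, the methods' t-test, the slide as a block, the replicate block, averaging a gene's probes, and each array left out. A normexp fit without spots darker than their background was chosen after seeing the data.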

Additional observations from a re-analysis of the deposited data

How the results depend on the processing

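The log2 differences of the 10 genes in 9 comparisons were recomputed under 29 settings, which gave 1591 values. Of these, 1464 kept their side of the threshold, 101 lost a call, 13 gained a call and 13 changed sign where a call was involved, while 169 of the 1464 were uncalled values with another sign.

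In TBI vs. Naive, where 2 genes were called, 0 were called with normexp, without a filter on dim probes, by limma on the compared groups alone, by the methods' t-test after Benjamini-Hochberg adjustment and with the slide as a fixed block. The count was 1 with only probes detected on all 16 arrays, which leaves 6 of the 10 genes in the fit, and 1 with normexp without dark spots. At the methods' own criteria, an unadjusted p under 0.05 and a fold over 1.2, the t-test passed 2 genes. Leaving out 1 array gave 0 to 1, and Nr3c1 was the call gained without Naive 3 (1.01, adjusted p = 0.046). In TBI vs. Sham the slide as a random block called 1 gene, Crhr1. Leaving out 1 array gave 0 to 0 calls in TBI vs. Sham and in Sham vs. Naive.

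In TBI+JM6, TBI+PMI and TBI+E33 vs. TBI, with 7, 5 and 7 calls, the counts were 2, 1 and 0 after quantile normalization, 0, 0 and 0 with normexp but 6, 4 and 7 with normexp without dark spots, 3, 2 and 3 with only probes detected on all arrays, and 0, 1 and 0 with the deposited ratios. The 75th percentile over all probes gave 4 calls for JM6 and 4 for E33. Leaving out 1 array gave 5 to 7, 4 to 6 and 3 to 7 calls.

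Quantile normalization turned the sign vs. TBI for Nr3c1 (-0.24), Tsc22d3 (-0.50) and Crhbp (-0.095) with JM6 and for Crhbp with E33 (-0.11). The percentile over all probes turned Tsc22d3 with JM6 (-0.68), PMI (-0.64) and E33 (-0.49). The deposited ratios turned Nr3c1 (-0.23) and Crhbp (-0.081) with JM6 and Crhbp with E33 (-0.096). Normexp turned Crhr1 in TBI vs. Naive (0.18) and in TBI+PMI vs. TBI (-0.043) and Crhr2 in TBI+PMI vs. TBI (-0.18). On TBI 2 and TBI+JM6 3, 6 spots each lay far below their local background, and the fifth percentile after normexp was 247 and 1060 there, against 68.2 and 83.1 without those spots. The cause of the other changes was not tested.

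With the replicate number as a block, 0, 2 and 0 genes were called in TBI vs. Sham, TBI vs. Naive and Sham vs. Naive, and 7, 5 and 5 in TBI+JM6, TBI+PMI and TBI+E33 vs. TBI. The replicate block is no evidence of pairing, since not every same-numbered pair correlated above 0.1. The 2 or 3 arrays per group and probes near background limit all values, above all those of Crhr1, Crhr2 and the second probes of Nr3c1 and Crh.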

Other observations

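Markers of cell types outside the stress axis also differed among Naive, Sham and TBI rats. Of 6 oligodendrocyte markers, 3 were called lower in TBI vs. Sham (median log2 difference -1.02) and 0 in TBI vs. Naive (-0.31), against 6.46% and 1.73% of all tested probes. Choroid plexus markers ranged from 2.38 to 77.9 in Naive, 4.95 to 123 in Sham and 0.226 to 3.60 in TBI rats as summed levels, and 0 of 6 tested were called by limma in these 3 comparisons. Corticosteroid synthesis, clearance and transport had 7 of 7 genes higher in TBI than in Sham rats, with a median of 0.49 and 0 called. The median of all tested probes was -0.03. Of the 7, Star, Serpina6 and Cyp11b2 were above background on 0 of 3 TBI arrays and Cyp11b1 on 1 of 3. No direction can therefore be read from several of these genes.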
